A study of Mus musculus with 24 samples.

Results

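The interaction of CBLB502 with cisplatin in mouse liver was measured over the 12 liver libraries of a series of 24 liver and kidney libraries. It is the difference between the cisplatin effect in mice that had received CBLB502 and the cisplatin effect in mice that had not, written as combination minus CBLB502, minus cisplatin minus control. All liver libraries entered, with 3 in each of 4 groups of C57BL/6 mice. Control mice were untreated, and no time is given for them. The CBLB502 group received 0.2 mg/kg of CBLB502 and the cisplatin group a single intraperitoneal dose of 20 mg/kg. The combination group received CBLB502 30 min before that dose, and treated livers were taken at 72 h. Whether the 3 libraries of a group stand for 3 mice is not stated in the labels, and p-values therefore cover library-to-library spread only, part of which may be technical.

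Cisplatin is a platinum drug that crosslinks DNA and activates p53, and its dose is limited by injury to normal organs. CBLB502 is a flagellin-derived agonist of the Toll-like receptor TLR5. In liver, signals from this receptor reach NF-kB and, through interleukin-6, STAT3, whose targets in hepatocytes include the acute-phase plasma proteins. An interaction of 0 means that the log2 changes caused by the agents add up. A negative value means that the combination level was below that sum, and a positive value that it was above it. The same number is obtained as combination minus cisplatin, minus CBLB502 minus control, so it cannot say which agent altered the response to the other.

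The control libraries stood apart from the treated ones before any gene was compared. Mitochondrial genes held 69.3% to 72.2% of control counts and 2.57% to 7.11% of treated counts, and 7 copies on chromosome 1 held a further 19.8% to 20.9% of control counts. Without both sets, control libraries held 2.82 to 4.65 M counts (M for mega) and treated libraries 48.6 to 74.5 M. This feature of the controls and the untreated state cannot be told apart, and the controls enter every interaction. Cisplatin library 3 also stood apart, with a root mean square log2 distance of 1.74 and 1.61 from the other cisplatin libraries, which were 0.977 apart, and of 1.18 to 1.26 from the combination libraries. Hepatocyte markers were abundant, as the tissue label states, with a summed level of 32050 to 57340 CPM in control and 100500 to 164200 CPM in treated libraries. Kidney tubule markers summed to 0.403 to 99.1 CPM, with wide spread inside the CBLB502 and cisplatin groups, and none of their 10 members was called. CPM are counts per M on scaled library sizes.

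Of 18381 genes tested, 2688 were below additivity and 1207 above it, which is 14.6% and 6.57% of those tested (edgeR quasi-likelihood test, Benjamini-Hochberg adjusted p under 0.05). The median log2 interaction over all genes was -0.22. Median-of-ratios scaling moved that median to 0.01 and gave 2037 genes below and 1571 above, so the share of calls below additivity was 69% with the main scaling and 56.5% with the other. Leaving out cisplatin library 3 gave 3483 below and 2122 above, of 19221 tested, so both shares rose. Counts of list members without that library, given further on, are to be read against this rise.

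Most calls shared a plain shape. The interaction is itself computed from the libraries compared here. Calls below additivity are thus selected for low control and high single-agent levels, and calls above it for the reverse. The shares below exceed those of all genes in part for that reason and are given as description. Among the 2688 genes below additivity, 2043 were higher than control with each agent given alone, or 76% against 14.8% of all genes tested. Their median cisplatin effect was 1.75 log2 units without CBLB502 and 0.0045 with it. Among the 1207 genes above additivity, 837 were lower than control with each agent alone, or 69.3% against 7.07% of all genes (17.5% of all genes were lower with cisplatin and 9.43% with CBLB502). The corresponding medians were -1.79 and 0.24. All 3 control libraries lay below all 9 treated libraries for 2207 of the genes below additivity, or 82.1%, against 18.8% of all genes tested. They lay above all treated libraries for 794 of the genes above additivity, or 65.8%, against 10.7% of all genes.

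**Figure D1:**
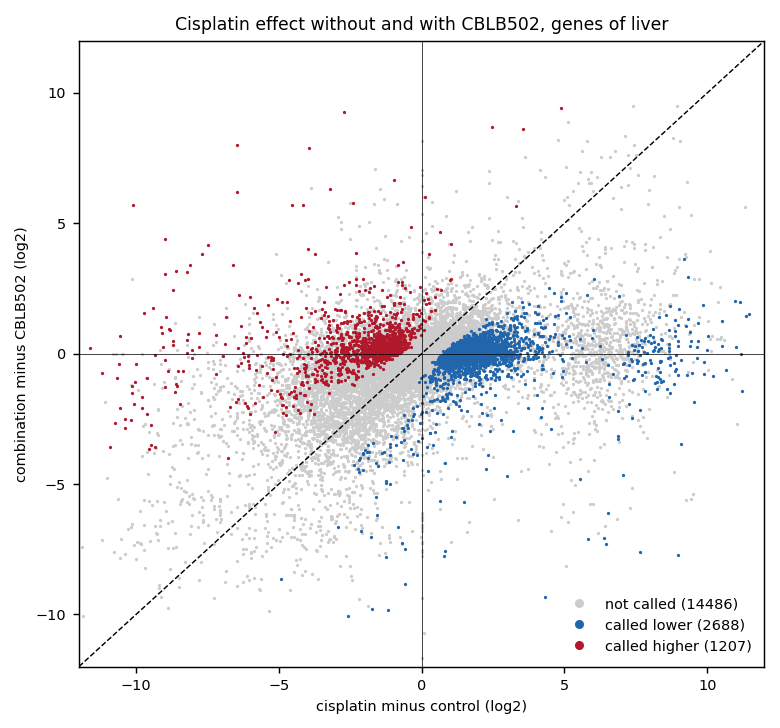
Log2 difference of cisplatin from control (horizontal) and of the combination from CBLB502 (vertical) for each liver gene tested, with no library shared between the axes. Genes on the dashed line are additive, and 17 genes lie outside the range of 12 log2 units. The 2688 genes called below additivity (blue) lie mostly to the right of 0 and close to 0 on the vertical axis, and the 1207 called above it (red) mostly to the left.

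For a part of the called genes, the combination differed from a single agent, a comparison that leaves out the control libraries. Such a difference is not by itself an interaction, which needs all 4 groups. The combination was lower than cisplatin alone for 416 of the 2688 genes below additivity, or 15.5%, where 3.07% of all genes tested were. It was lower than CBLB502 alone for 135 of them, or 5.02%, against 3.88% of all genes. Of the 1207 genes above additivity, 64 were higher in the combination than with cisplatin (5.3% against 0.724% of all genes). These comparisons use the cisplatin and combination libraries of the interaction itself and are given as description.

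Of 24 genes of fatty acid and triglyceride synthesis, 11 rose with CBLB502 alone, where 17.2% of all genes did, and 7 were lower in the combination than with CBLB502, where 3.88% were. In this list 8 were below additivity and none above, where 14.6% and 6.57% of all genes were, with a median of -0.93. Scd1, the stearoyl-CoA desaturase that makes monounsaturated fatty acids, had 1276, 1616 and 639 CPM in control, 3534, 7703 and 3259 with CBLB502, 948, 1035 and 208 with cisplatin and 42.6, 21.9 and 29.7 with the combination. All CBLB502 libraries were above the control libraries, and the combination libraries lay below every other library. The combination mean was 23.3-fold lower than with cisplatin and 153.8-fold lower than with CBLB502. The interaction at Scd1 (chr19:44394455-44407709 on GRCm38) was -6.58 ± 0.88 (adjusted p = 0.00069), as log2 ± SE. It stayed called with each of the 12 libraries left out, at adjusted p of 2.6e-05 to 0.0042.

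Elovl5, which lengthens polyunsaturated fatty acids, had 104, 113 and 69.1 CPM in control, 373, 468 and 303 with CBLB502, 123, 122 and 166 with cisplatin and 86.2, 67.3 and 83.5 with the combination. Only the CBLB502 libraries were high, and the combination lay below cisplatin with no overlap. Its interaction was -2.79 ± 0.36 (adjusted p = 0.00059). Fads1, the delta-5 desaturase, had 67.1, 52.8 and 60.6 CPM in control, 442, 575 and 389 with CBLB502, 144, 206 and 328 with cisplatin and 303, 275 and 198 with the combination, which is high in every treated group and highest with CBLB502. Its interaction was -2.77 ± 0.43 (adjusted p = 0.0014). Without cisplatin library 3 the list had 8 members below additivity and 4 above.

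Many genes of fatty acid oxidation and cholesterol synthesis rose with each agent alone, and few differed between the combination and either agent. Of 33 oxidation and PPAR alpha genes, 14 were below additivity and none above, where 14.6% and 6.57% of all genes were. Higher than control with each agent were 21 of them, against 14.8% of all genes. In the combination, 1 was lower than with cisplatin and 1 lower than with CBLB502. The median was -2.03 for the list, and -0.83 without cisplatin library 3, with 14 below and 1 above. The count below was 9 without CBLB502 library 2, combination library 1 or combination library 2. Bdh1, which interconverts the ketone bodies, had 42.8, 38.4 and 41.7 CPM in control, 246, 237 and 237 with CBLB502, 63.1, 61.7 and 161 with cisplatin and 67.8, 56.1 and 66.3 with the combination. Its high group was CBLB502, the combination libraries lay below those, and the interaction was -3.14 ± 0.46 (adjusted p = 0.001). Plin2, the lipid droplet coat protein, had 65.9, 84.4 and 71.5 CPM in control, 359, 298 and 456 with CBLB502, 777, 629 and 401 with cisplatin and 202, 168 and 279 with the combination. It was high with either agent, and the combination lay below both single-agent groups with no overlap at an interaction of -3.81 ± 0.42 (adjusted p = 0.00029).

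Of 23 cholesterol synthesis genes, 9 were below additivity and none above, where 14.6% and 6.57% of all genes were. Higher than control with each agent were 11 of them, against 14.8% of all genes. The count below additivity was 5 without CBLB502 library 2 or combination library 3. Ebp, the sterol isomerase, had 41.2, 64.2 and 42.5 CPM in control, 236, 226 and 192 with CBLB502, 220.0, 254 and 218 with cisplatin and 248, 236 and 216 with the combination. The 9 treated libraries overlapped and all lay above the controls, with an interaction of -2.13 ± 0.30 (adjusted p = 0.00087). Cyp51, the lanosterol demethylase, had 24.2, 28.5 and 14.8 CPM in control, 180.2, 259.6 and 203 with CBLB502, 334, 440.4 and 154 with cisplatin and 239, 258 and 58.6 with the combination, with an interaction of -3.99 ± 0.75 (adjusted p = 0.0035). The PPAR alpha target Cyp4a14 had an interaction of -4.72 ± 1.35 (adjusted p = 0.029), and its call was lost in 7 of the 12 fits that left out a library.

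**Figure D2:**
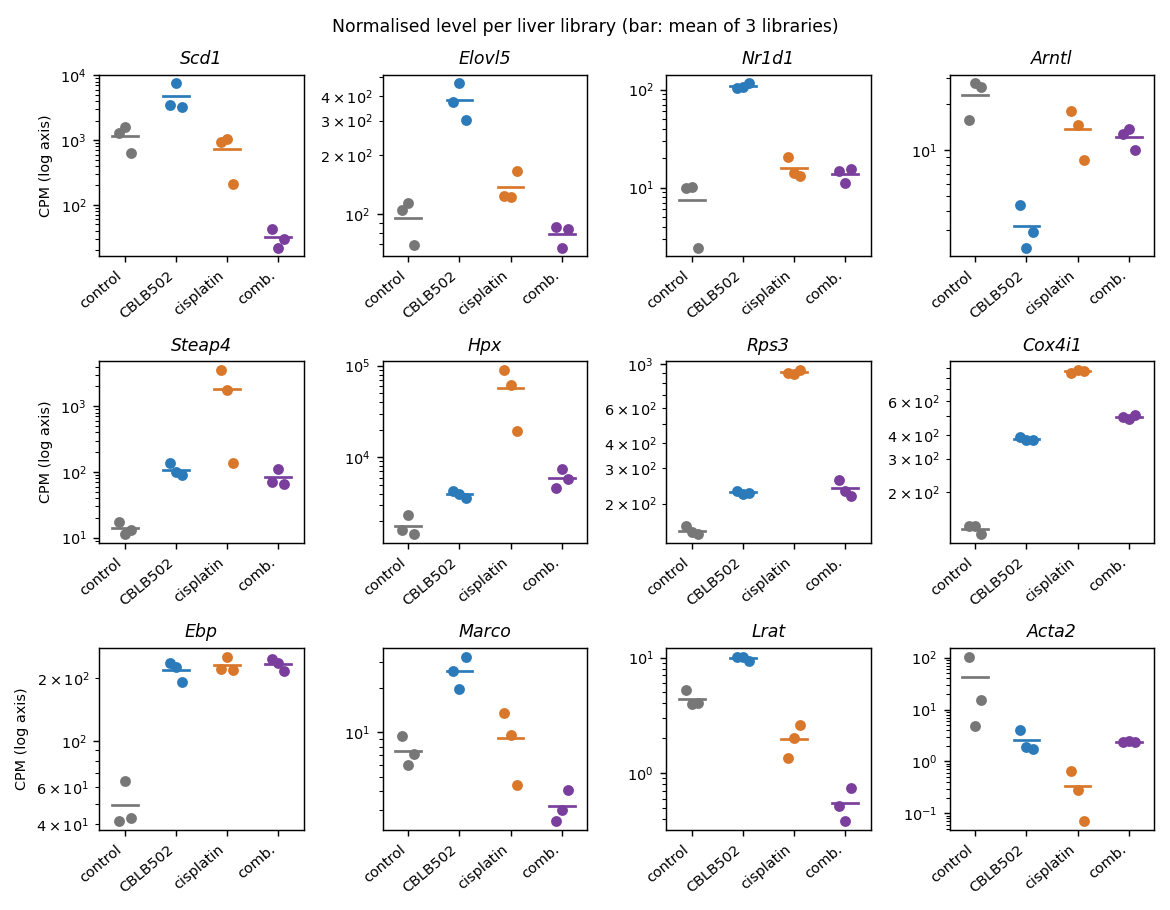
Normalised level (CPM, log axis) of 12 genes in each of the 3 libraries (points) of the 4 liver groups, with the group mean as a bar. Scd1 is highest with CBLB502 and lowest in the combination, and Elovl5 and Nr1d1 are high with CBLB502 only. Steap4, Hpx and Rps3 are highest with cisplatin, Ebp is high in all treated groups, and Marco and Lrat are lowest in the combination.

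The circadian clock list gave 4 of 22 genes below additivity and 1 above, which is close to the 14.6% and 6.57% of all genes tested. The genes that follow are therefore described singly. In the clock, the repressors REV-ERB alpha and beta, encoded by Nr1d1 and Nr1d2, bind ROR elements and repress Arntl, the gene of the activator BMAL1. Nr1d1 had 9.99, 10.1 and 2.44 CPM in control, 105, 105 and 117 with CBLB502, 20.5, 14.2 and 13.1 with cisplatin and 14.7, 11.2 and 15.6 with the combination. The CBLB502 libraries were 7.88-fold above the combination in the mean, and the other groups lay between 2.44 and 20.5 CPM. Its interaction was -4.05 ± 0.54 (adjusted p = 0.00069), the change from control to CBLB502 was 3.85 ± 0.42 (adjusted p = 0.00013) and that from CBLB502 to the combination was -2.98 ± 0.39 (adjusted p = 0.0012). Nr1d2 had 10.8, 2.36 and 4.88 CPM in control, 55.7, 71.7 and 63.8 with CBLB502, 76.3, 76.8 and 81.6 with cisplatin and 61.1, 56.4 and 63.02 with the combination, which is high in every treated group, and an interaction of -3.80 ± 0.53 (adjusted p = 0.00079).

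Arntl went the other way. It had 15.8, 27.7 and 26.0 CPM in control, 4.37, 2.29 and 2.92 with CBLB502, 18.2, 14.6 and 8.6 with cisplatin and 12.8, 13.7 and 10.0 with the combination, so CBLB502 was the low group and lay below every other library. The interaction was 2.67 ± 0.48 (adjusted p = 0.0028), and the combination was 1.93 ± 0.34 (adjusted p = 0.0074) above CBLB502. Sequence bears on this pair only as description: one of the 2 start-site windows of Arntl in RefSeq (GRCm38.p6, chr7:113207261-113207560, plus strand, 250 bases before the start and 50 after it) holds the ROR element TAGGTCA, shown in capitals, at bases 281 to 287 of the window.
Arntl: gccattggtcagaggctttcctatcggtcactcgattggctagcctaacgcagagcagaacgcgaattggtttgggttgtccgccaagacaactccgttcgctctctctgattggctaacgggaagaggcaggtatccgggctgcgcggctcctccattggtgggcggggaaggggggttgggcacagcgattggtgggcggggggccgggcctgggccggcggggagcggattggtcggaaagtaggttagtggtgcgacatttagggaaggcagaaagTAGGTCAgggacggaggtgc
Such an element, searched on both strands, was found in 2.61% of 32851 windows of the same length, and in no window of Nr1d1 or Nr1d2. The E-box CACGTG, at which BMAL1 acts, was in 7.15% of all windows and in none of these.

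Dbp, Npas2 and Ciart did not pass the test. Dbp, an output gene of the clock, had 3.8, 0 and 0 CPM in control, 75, 114 and 114 with CBLB502, 0.33, 0.818 and 13.3 with cisplatin and 23.2, 12.7 and 21.1 with the combination, with an interaction of -4.42 ± 1.78 (adjusted p = 0.1). Npas2, the partner of BMAL1, had 6.39, 10.7 and 16.9 CPM in control, 0.13, 0.252 and 0.0974 with CBLB502, 0.682, 0.237 and 0 with cisplatin and 0.162, 0.19 and 0 with the combination, with an interaction of 4.77 ± 1.73 (adjusted p = 0.072) and, without cisplatin library 3, of 4.16 (adjusted p = 0.036). Ciart, a repressor of the clock, had an interaction of -0.15 ± 0.56 (adjusted p = 0.89), and its sign changed with the scaling. Without cisplatin library 3 the list had 5 genes above and 5 below. The hour of the day at which livers were taken is not given in the sources used here.

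Most acute-phase genes rose with cisplatin, and a part of them stood lower in the combination. Of 33 tested, 15 were below additivity and 1 above, where 14.6% and 6.57% of all genes were, with a median of -2.56. In pairwise terms, 28 were higher with cisplatin than in control (24.4% of all genes were), and 5 were higher with CBLB502 than in control (17.2% of all genes). In the combination, 10 were lower than with cisplatin (3.07% of all genes) and 12 were higher than with CBLB502 (2.24% of all genes). Without cisplatin library 3 the count below additivity was 22, and over all single omissions it ran from 10 to 22. Steap4, a metalloreductase induced in inflamed liver, had 17.4, 11.2 and 13.2 CPM in control, 138, 99.8 and 88.6 with CBLB502, 3608, 1754 and 139 with cisplatin and 70.1, 112 and 65.4 with the combination. Cisplatin library 3 was far below its partners, although all cisplatin libraries remained above the combination. The interaction was -7.44 ± 1.17 (adjusted p = 0.0014) with all libraries and -8.01 (adjusted p = 5.1e-06) without that one.

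Hpx, the plasma haem carrier hemopexin, had 1595, 2345 and 1432 CPM in control, 4238, 3972 and 3630 with CBLB502, 90490, 60780 and 19200 with cisplatin and 4608, 7385 and 5765 with the combination. Here too the cisplatin libraries lay above all others, and the mean was 9.6-fold lower in the combination. Its interaction was -4.40 ± 0.71 (adjusted p = 0.0016). Fga, the fibrinogen alpha chain, had 1064, 1083 and 1091 CPM in control, 4705, 4304 and 4307 with CBLB502, 42400, 34880 and 4967 with cisplatin and 6746, 8297 and 7106 with the combination. Cisplatin library 3 lay below the combination libraries, the interaction was -3.93 ± 0.81 (adjusted p = 0.0058), and without that library it was -4.44 (adjusted p = 3.7e-06). Crp, C-reactive protein, had 101, 72.1 and 90.5 CPM in control, 318, 314 and 301 with CBLB502, 373, 363 and 492 with cisplatin and 400.2, 434 and 394 with the combination, high in all treated libraries, with an interaction of -1.83 ± 0.29 (adjusted p = 0.0014).

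The start-site windows of Steap4, Fga, Hpx, Saa1 and Saa2 were searched for STAT motifs. Steap4 and Fga carry a match to the STAT motif TTCNNNGAA in the start-site window, shown in capitals for chr5:7960222-7960521 and chr3:83025903-83026202, both on the plus strand.
Steap4: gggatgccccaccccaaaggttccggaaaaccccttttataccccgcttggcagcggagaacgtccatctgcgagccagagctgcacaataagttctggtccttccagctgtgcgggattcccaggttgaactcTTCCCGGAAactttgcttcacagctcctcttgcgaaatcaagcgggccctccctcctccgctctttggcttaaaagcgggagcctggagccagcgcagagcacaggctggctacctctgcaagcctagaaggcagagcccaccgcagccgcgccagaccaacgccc
Fga: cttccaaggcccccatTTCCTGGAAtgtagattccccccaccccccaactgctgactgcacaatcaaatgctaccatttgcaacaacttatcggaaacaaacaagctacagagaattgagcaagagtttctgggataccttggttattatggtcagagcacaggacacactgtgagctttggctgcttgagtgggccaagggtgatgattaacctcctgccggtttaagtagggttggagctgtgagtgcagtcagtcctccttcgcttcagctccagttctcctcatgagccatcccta
The motif, searched on both strands, was in 8.3% of the 32851 windows. No match was found in the windows of Hpx, Saa1 and Saa2.

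Several acute-phase genes varied widely between cisplatin libraries. Saa1 and Saa2 encode serum amyloid A proteins and are near-identical copies, so reads may have been split between them. Saa1 had 15, 38 and 68.5 CPM in control, 71.3, 21.8 and 37.8 with CBLB502, 49610, 19990 and 343 with cisplatin and 502.2, 883 and 249.5 with the combination. Its interaction of -5.53 ± 1.67 (adjusted p = 0.036) held in 1 of 12 fits that left out a library, with adjusted p of 0.00069 to 0.089. Saa2 had an interaction of -6.37 ± 2.02 (adjusted p = 0.043), held in 1 of 12 such fits. Lcn2, the iron-trapping lipocalin, had 6.99, 13.1 and 14.8 CPM in control, 13.4, 7.93 and 7.5 with CBLB502, 12860, 8924 and 107 with cisplatin and 786, 1354 and 616 with the combination, with an interaction of -2.71 ± 1.43 (adjusted p = 0.21) and, without cisplatin library 3, of -3.31 (adjusted p = 0.00093). Hp, haptoglobin, had 1525, 2147 and 1949 CPM in control, 2686, 2422 and 2642 with CBLB502, 50070, 51410 and 10440 with cisplatin and 14660, 21470 and 14660 with the combination, with an interaction of -1.60 ± 0.70 (adjusted p = 0.13) and, without that library, of -2.06 (adjusted p = 0.00066). Orm2 had an interaction of -1.38 ± 1.25 (adjusted p = 0.48).

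Upstream of these proteins, 4 of 19 genes of the interleukin-6 and STAT3 list were below additivity (14.6% of all genes were) and none above. Without cisplatin library 3, 10 were below. Il6st, the shared receptor chain gp130, had 55.5, 44.2 and 49.2 CPM in control, 99.5, 98.8 and 85.4 with CBLB502, 110.1, 100.2 and 102 with cisplatin and 75.1, 64.6 and 73.0 with the combination. The combination lay below both single-agent groups with no overlap, and the interaction was -1.49 ± 0.23 (adjusted p = 0.0014). Lepr, the leptin receptor, had 0.799, 0 and 0 CPM in control, 3.85, 1.95 and 1.87 with CBLB502, 142, 208 and 1.63 with cisplatin and 0.681, 2.28 and 1.92 with the combination, with an interaction of -9.52 ± 2.07 (adjusted p = 0.0077), with 2 cisplatin libraries at the high level. Without control library 1, the only control with a count, it was -15.98, and with limma-voom it was not called (adjusted p = 0.44, and 0.055 with quality weights). Socs1, a feedback inhibitor of cytokine receptors, had 0, 0 and 1.22 CPM in control, 2.27, 0.361 and 0.934 with CBLB502, 26.6, 26.9 and 0.315 with cisplatin and 0, 0.121 and 0 with the combination, with an interaction of -10.35 ± 2.43 (adjusted p = 0.011), which became -17.44 without control library 3, the only control with a count. With limma-voom it was not called either (adjusted p = 0.35, and 0.06 with quality weights). Socs3, the inhibitor of gp130 signalling, had 19, 51.6 and 24 CPM in control, 63.1, 10.0 and 10.0 with CBLB502, 425, 582 and 30.5 with cisplatin and 16.5, 38.5 and 22.0 with the combination, with an interaction of -3.56 ± 1.33 (adjusted p = 0.081) and, without cisplatin library 3, of -4.11 (adjusted p = 0.0098).

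Of 35 genes of the Toll-like receptor, NF-kB and chemokine list, 3 were below additivity and 1 above, where 14.6% and 6.57% of all genes were. Without cisplatin library 3, 10 were below. Tlr5, the receptor of CBLB502, had 0, 3.62 and 1.02 CPM in control, 6.12, 5.62 and 6.87 with CBLB502, 0.418, 0.431 and 2.17 with cisplatin and 2.45, 2.08 and 4.38 with the combination. The interaction of -0.41 ± 1.31 (adjusted p = 0.86) was within its error, and its sign changed when control library 1 or cisplatin library 3 was left out. Tlr2 had 0, 0.787 and 1.63 CPM in control, 3.72, 2.69 and 2.36 with CBLB502, 9.06, 6.57 and 0.963 with cisplatin and 0.519, 0.519 and 0.442 with the combination, with the combination below every CBLB502 and cisplatin library, and an interaction of -5.34 ± 1.29 (adjusted p = 0.013), which limma-voom did not call (adjusted p = 0.11). Cxcl1, a chemokine for neutrophils, had 1.6, 34.0 and 15.0 CPM in control, 12.3, 3.98 and 3.47 with CBLB502, 266, 361 and 64.4 with cisplatin and 15.1, 80.3 and 24.1 with the combination, with an interaction of -1.16 ± 1.31 (adjusted p = 0.57).

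Of 29 interferon-stimulated genes, 2 were below additivity and 1 above, where 14.6% and 6.57% of all genes were, although the list median was -1.29. Without cisplatin library 2 the count below was 5, and without cisplatin library 3 the median was 0.04. Bst2, which tethers enveloped viruses, had 30.2, 50.2 and 37.4 CPM in control, 205, 192 and 173 with CBLB502, 39.6, 51 and 204 with cisplatin and 43.8, 48.5 and 49.3 with the combination. It was high with CBLB502 and in cisplatin library 3, and the combination was at control level, with an interaction of -3.33 ± 0.71 (adjusted p = 0.0069). Stat2 had 274, 577 and 453 CPM in control, 89.7, 91.8 and 111 with CBLB502, 55.7, 55.3 and 99.2 with cisplatin and 69.5, 51.8 and 63.6 with the combination, highest in control, and an interaction of 1.97 ± 0.43 (adjusted p = 0.0082).

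Ribosomal protein genes were high with cisplatin alone, and many stood lower in the combination. Of 30 cytosolic ribosomal proteins, 24 were below additivity, none was above, and all 30 fitted values were negative, with a median of -1.37. Of all genes, 14.6% were below additivity and 6.57% above. In pairwise terms, 29 members were higher with cisplatin than in control (24.4% of all genes). In the combination, 16 were lower than with cisplatin (3.07% of all genes). The combination libraries lay below all cisplatin libraries for 26 of 30 members, where 14.7% of all genes did. Rps3, a protein of the small subunit (chr7:99477896-99483738), had 154, 144 and 140.0 CPM in control, 232, 224 and 227 with CBLB502, 899.8, 890.0 and 935 with cisplatin and 264, 232 and 218 with the combination. The 3 cisplatin libraries, library 3 included, stood close together, and the combination was near the CBLB502 level.

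The cisplatin effect on Rps3 was 2.64 ± 0.18 (adjusted p = 4.5e-06) without CBLB502 and 0.06 ± 0.17 (adjusted p = 0.93) with it. The interaction was -2.57 ± 0.25 (adjusted p = 0.0002), and -2.67 to -2.53 with each library left out. Rpl5, a protein of the large subunit, had 153, 125 and 139 CPM in control, 244, 248 and 233 with CBLB502, 1021, 967 and 1078 with cisplatin and 352, 318 and 352 with the combination, with an interaction of -2.38 ± 0.26 (adjusted p = 0.00025). The count of members below additivity ran from 19 to 28 over the single omissions and was 28 without cisplatin library 3. Relative to the median of all genes the list median was -1.15, and from -1.17 to -1.11 under the other scalings. Ribosomal proteins have many processed pseudogenes, so reads may be split with those copies.

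Nuclear-encoded subunits of the respiratory chain gave the same counts, 24 of 30 below additivity and none above, with a median of -1.55. Of all genes, 14.6% were below and 6.57% above. The respiratory chain genes differed in shape from the ribosomal genes: 23 were higher than control with each agent alone (14.8% of all genes). In the combination, 3 were lower than with cisplatin (3.07% of all genes). Cox4i1, a subunit of cytochrome c oxidase, had 133, 133 and 119.7 CPM in control, 392, 375 and 376 with CBLB502, 847, 881 and 870.1 with cisplatin and 496, 487 and 511 with the combination. The groups did not overlap and ran from control through CBLB502 and the combination to cisplatin, with an interaction of -2.37 ± 0.24 (adjusted p = 0.00023). Cox5a had 36.4, 28.5 and 31.9 CPM in control, 161, 154 and 137 with CBLB502, 120.4, 129 and 144 with cisplatin and 125, 116 and 137 with the combination, above control in every treated library, and an interaction of -2.28 ± 0.25 (adjusted p = 0.00026). Ndufa4 had 68.5, 35.9 and 61 CPM in control, 268, 278 and 267 with CBLB502, 458, 450 and 470.0 with cisplatin and 339.7, 338 and 368 with the combination, with an interaction of -2.70 ± 0.33 (adjusted p = 0.00047). The control libraries lay below all treated ones for 28 of the 30 members, where 18.8% of all genes did. These control libraries are the ones in which the mitochondrial genes took most counts. Their part in the result was not tested.

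**Figure D3:**
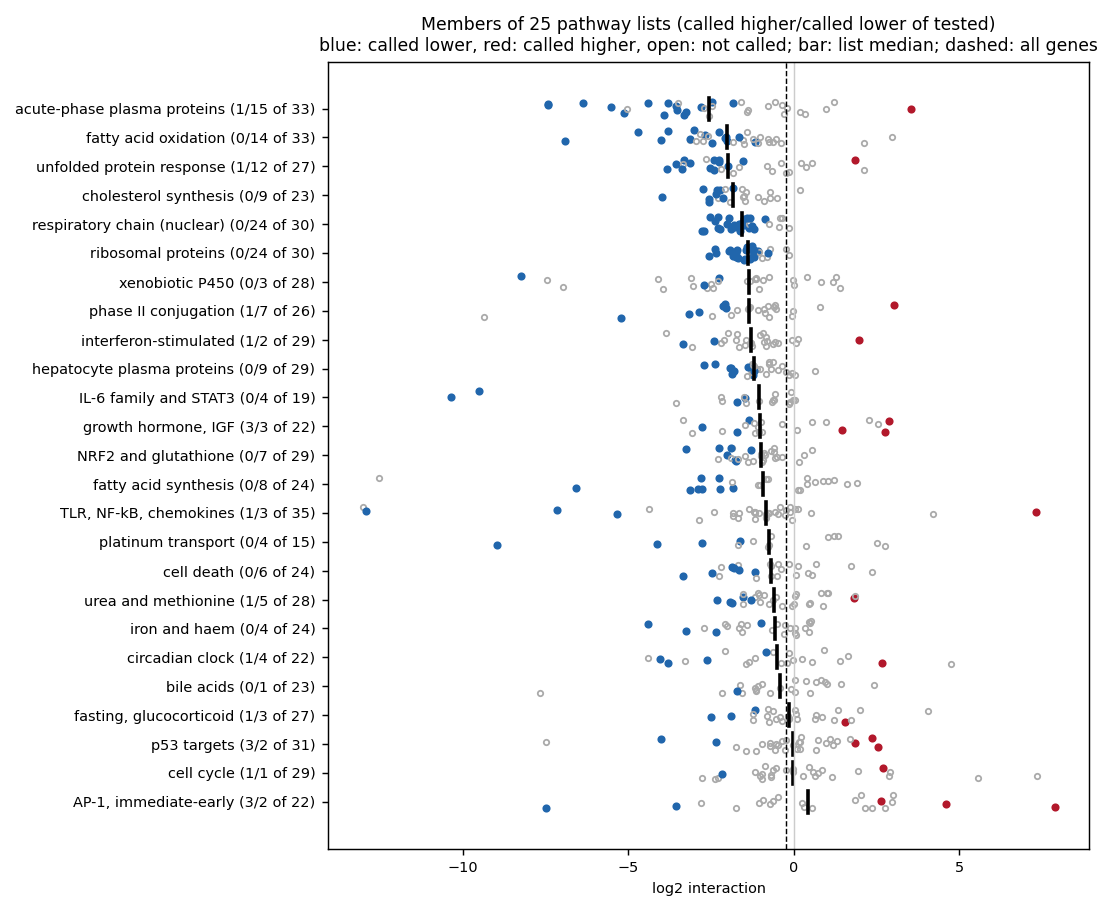
Log2 interaction (horizontal) of each tested member of 25 pathway lists (rows), with the list median as a bar and the median of all genes, -0.22, as a dashed line. Ribosomal and respiratory chain genes form narrow groups on the negative side, acute-phase genes spread widely around -2.56, and p53 targets centre near 0.

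Of 27 genes of the unfolded protein and integrated stress responses, 12 were below and 1 above, with a median of -1.98. Of all genes, 14.6% were below and 6.57% above. Canx, the lectin chaperone calnexin, had 71.7, 49.9 and 80.3 CPM in control, 272, 260.1 and 262 with CBLB502, 365, 376 and 374 with cisplatin and 271, 267 and 225 with the combination. The combination was at the CBLB502 level and below cisplatin, and the interaction was -2.52 ± 0.29 (adjusted p = 0.00036). Dnajc3 had 52.5, 69.8 and 39.4 CPM in control, 216, 182 and 229 with CBLB502, 418, 467 and 244 with cisplatin and 269.8, 295 and 259 with the combination, with an interaction of -2.41 ± 0.39 (adjusted p = 0.0017). Pdia3, a disulfide isomerase, had 181, 315 and 167 CPM in control, 544, 432 and 609 with CBLB502, 1009, 874 and 777 with cisplatin and 454, 484 and 404 with the combination, with an interaction of -2.25 ± 0.38 (adjusted p = 0.0022). The 1 member above additivity was Sesn2, which also stands on the p53 list.

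Of 31 p53 targets, 3 were above additivity and 2 below, where 6.57% and 14.6% of all genes were, with a median of -0.03. The counts were 4 and 5 without cisplatin library 3. Of the same genes, 23 were higher with cisplatin than in control and 19 were higher in the combination than with CBLB502 (2.24% of all genes were). Cdkn1a, the cell cycle inhibitor p21, had 10.4, 6.14 and 12.2 CPM in control, 4.19, 6.13 and 3.91 with CBLB502, 828, 629 and 206 with cisplatin and 466, 464 and 399 with the combination. It was high in both groups that received cisplatin, and those groups overlapped. The interaction was 0.68 ± 0.61 (adjusted p = 0.47), and 0.27 to 1.07 with each library left out. Mdm2, which degrades p53, had 24.6, 33.4 and 35 CPM in control, 24.7, 20.5 and 30.8 with CBLB502, 60.7, 32.9 and 65.3 with cisplatin and 127, 82.3 and 89.8 with the combination, with the combination above cisplatin, and an interaction of 1.20 ± 0.40 (adjusted p = 0.054), or 1.37 (adjusted p = 0.024) without cisplatin library 3.

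Among called p53 targets, Sesn2, a stress-induced regulator of growth signalling, had 10.8, 8.19 and 21.3 CPM in control, 5.16, 3.97 and 4.93 with CBLB502, 36.5, 19.4 and 23.1 with cisplatin and 33.4, 32.6 and 34.8 with the combination, with an interaction of 1.86 ± 0.47 (adjusted p = 0.015). Ddb2, a sensor of DNA damage, had 16.6, 8.19 and 16.3 CPM in control, 3.4, 4.27 and 4.61 with CBLB502, 2.48, 2 and 5.71 with cisplatin and 4.78, 6.92 and 6.35 with the combination, with an interaction of 2.56 ± 0.60 (adjusted p = 0.011), with control the high group. Perp had 20, 18.7 and 12.8 CPM in control, 83.6, 85.9 and 75.0 with CBLB502, 68.4, 84.2 and 124 with cisplatin and 90.6, 81.5 and 86.6 with the combination, level over the treated groups, and an interaction of -2.34 ± 0.34 (adjusted p = 0.00098). Gdf15, a cytokine of stressed tissue, had 5.59, 47.4 and 4.67 CPM in control, 2.38, 2.09 and 3.68 with CBLB502, 96.0, 26.6 and 33.6 with cisplatin and 29.1, 17.8 and 24.3 with the combination, with an interaction of 1.71 ± 1.06 (adjusted p = 0.29). Its sign changed without control library 2, whose level was within the range of the cisplatin group.

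Cell death genes were below additivity in 6 of 24 cases, with none above, against 14.6% and 6.57% of all genes. Mcl1, an inhibitor of apoptosis, had 74.3, 63.6 and 53.2 CPM in control, 93.7, 98.7 and 94.8 with CBLB502, 225, 212 and 131 with cisplatin and 88.7, 80.3 and 75.6 with the combination. Every cisplatin library lay above the combination, and the interaction was -1.80 ± 0.32 (adjusted p = 0.0025).

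Of 15 genes of platinum uptake, efflux and binding, 4 were below additivity, against 14.6% of all genes. Slc31a1, the copper transporter that can carry cisplatin, had 40.4, 37.8 and 44.5 CPM in control, 193, 178 and 172 with CBLB502, 86.0, 94 and 189 with cisplatin and 194, 168 and 165 with the combination. The cisplatin libraries 1 and 2 were lower than the other treated libraries, and the interaction was -1.63 ± 0.39 (adjusted p = 0.012). Atp7a, a copper exporter, had no count in control and 0.685 to 1.87 CPM in the treated libraries. With control set at 3 counts over the group, it was at least 8.03-fold below additivity. The metallothioneins Mt1 and Mt2 bind metals and were high in both cisplatin groups. Mt1 had 42, 18.3 and 42.1 CPM in control, 19.2, 20.9 and 18.5 with CBLB502, 7842, 6784 and 769 with cisplatin and 1366, 2367 and 1430 with the combination, with an interaction of -0.77 ± 0.89 (adjusted p = 0.58), and Mt2 had an interaction of 1.23 ± 1.13 (adjusted p = 0.49).

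Among 29 NRF2 and glutathione genes, 7 were below additivity and none above, against 14.6% and 6.57% of all genes. Gss, glutathione synthetase, had 22.6, 31.6 and 43.5 CPM in control, 76.5, 86.4 and 84.3 with CBLB502, 133, 161 and 128 with cisplatin and 63, 86.8 and 71.8 with the combination, with the combination below cisplatin and near CBLB502, and an interaction of -2.27 ± 0.34 (adjusted p = 0.0011). Txnrd1, thioredoxin reductase, had 40.8, 51.8 and 44.7 CPM in control, 112, 122 and 115 with CBLB502, 228, 209 and 124 with cisplatin and 141, 137 and 141 with the combination, with an interaction of -1.77 ± 0.32 (adjusted p = 0.0028). Hmox1, the haem oxygenase, had 35.6, 16.9 and 42.1 CPM in control, 35.1, 20.8 and 22.2 with CBLB502, 60, 25.9 and 9.58 with cisplatin and 1.57, 3.18 and 3.57 with the combination. Control and both single-agent groups overlapped, the combination was lowest with no overlap, and the interaction was -3.25 ± 0.82 (adjusted p = 0.016), which limma-voom did not call (adjusted p = 0.059).

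Counts for genes of hepatocyte function changed with cisplatin library 3. Of 29 plasma protein and identity genes, 9 were below additivity and none above, where 14.6% and 6.57% of all genes were. Without that library, 14 were below. Alb had an interaction of -1.81 ± 0.59 (adjusted p = 0.048) that held in 2 of 12 fits that left out a library (adjusted p of 0.0089 to 0.12). Apoa4, an apolipoprotein, had 26.4, 35.9 and 31.3 CPM in control, 185, 142 and 168 with CBLB502, 990.3, 1078 and 1018 with cisplatin and 968, 662 and 856 with the combination, higher with CBLB502 than in control and higher again in both cisplatin groups, and an interaction of -2.71 ± 0.31 (adjusted p = 0.00037). Mat1a, which makes S-adenosylmethionine, had 581, 601 and 679 CPM in control, 2383, 2545 and 2359 with CBLB502, 12420, 14330 and 13850 with cisplatin and 13350, 14150 and 14150 with the combination, with an interaction of -1.93 ± 0.34 (adjusted p = 0.0025), with both cisplatin groups alike. Por, the reductase that serves the P450 enzymes, had 35.8, 46 and 15.7 CPM in control, 236, 313 and 272 with CBLB502, 543, 1030 and 1282 with cisplatin and 1223, 1113 and 1366 with the combination, with an interaction of -2.70 ± 0.55 (adjusted p = 0.0055). Arg1, the last enzyme of the urea cycle, had 354, 477 and 671 CPM in control, 1202, 1320 and 1228 with CBLB502, 5620, 5838 and 2640 with cisplatin and 3174, 3065 and 3451 with the combination, with an interaction of -1.86 ± 0.47 (adjusted p = 0.016).

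Other metabolic genes differed between cisplatin library 3 and its partners and did not pass the test. Bhmt, which remethylates homocysteine, had 836, 946 and 1276 CPM in control, 3194, 2663 and 3376 with CBLB502, 676, 1855 and 7150 with cisplatin and 22390, 17730 and 19150 with the combination, with the combination above every other library and an interaction of 1.02 ± 0.88 (adjusted p = 0.46). Without cisplatin library 3 it was 2.35 (adjusted p = 0.0041). Cps1, the first enzyme of the urea cycle, had 284, 553 and 582 CPM in control, 3500, 3148 and 2635 with CBLB502, 1112, 1603 and 3985 with cisplatin and 7745, 6521 and 7314 with the combination, with an interaction of -1.02 ± 0.62 (adjusted p = 0.28). Cyp7a1, which catalyses the slowest step from cholesterol to bile acids, had 22.8, 23.3 and 1.42 CPM in control, 60.5, 223 and 169.6 with CBLB502, 1.03, 1.36 and 164 with cisplatin and 278, 63.02 and 176 with the combination. Its interaction was -1.61 ± 2.08 (adjusted p = 0.63), and it turned to 3.91 (adjusted p = 0.03) without cisplatin library 3. Cyp3a11 had 212, 492 and 195 CPM in control, 3856, 3120 and 2937 with CBLB502, 255, 154 and 2662 with cisplatin and 1300, 1139 and 1467 with the combination, with an interaction of -3.12 ± 1.18 (adjusted p = 0.085). In the same way, the bile acid list had 1 of 23 genes below additivity with all libraries and 9 above without cisplatin library 3. The urea and methionine list went from 5 below and 1 above, of 28, to 6 and 6. The xenobiotic P450 list went from 3 below and none above, of 28, to 5 and 7. Of all genes tested, 14.6% were below and 6.57% above with all libraries. Without cisplatin library 3, 3483 were below and 2122 above, of 19221.

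Some of the lowest interactions had no count in control, and their fitted values depend on the prior count. Zc3h12c, an RNA-binding protein of the family that limits inflammatory transcripts, had 2.59, 3.64 and 3.48 CPM with CBLB502, 6.58, 3.98 and 7.83 with cisplatin and 4.65, 3.13 and 3.82 with the combination. The cisplatin libraries lay above those of CBLB502 and overlapped the combination. Against 3 counts over the control group it was at least 27.8-fold below additivity. Chst13, a sulfotransferase, had 3.18 to 6.31 CPM in treated libraries, with the combination below CBLB502, and was at least 39.6-fold below additivity. Control libraries held the fewest counts, and the part of that depth in these zeros was not tested.

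Markers of liver macrophages, taken as a sum, were lowest in the combination. Of 24 tested, 6 were below additivity and 1 above, where 14.6% and 6.57% of all genes were, with a median of -1.82. In pairwise terms, 17 were lower in the combination than with CBLB502 and 7 were lower than with cisplatin, against 3.88% and 3.07% of all genes. Markers of other cell types were also lower in the combination than with CBLB502. The counts were 12 of 20 endothelial, 12 of 20 stellate, 13 of 19 B and plasma cell and 11 of 21 T and NK markers. They were 2 of 10 for neutrophils, and 0 of 9 for hepatocytes and 0 of 6 for platelets. With cisplatin alone, 18 stellate, 18 B and plasma cell, 16 T and NK and 5 endothelial markers were already lower than in control. Lower in the combination than with cisplatin were 2 stellate, 0 B and plasma cell, 0 T and NK and 0 endothelial markers. The summed macrophage level was 412 to 647 CPM in control, 583 to 991 with CBLB502, 347 to 1226 with cisplatin and 119 to 128 with the combination. No macrophage marker was at 0 in any treated group. Cd14 alone held 967, 380 and 1.51 CPM with cisplatin, where the library sums were 1226, 644 and 347 CPM. Its control level was 1.73 to 2.44 CPM. With cisplatin alone, 11 of the 24 markers were lower than in control and 2 higher, against 17.5% and 24.4% of all genes. In whole liver, fewer cells of a type and less RNA per cell cannot be told apart. Marco, a scavenger receptor of Kupffer cells, had 9.39, 5.98 and 7.11 CPM in control, 25.9, 19.8 and 32.6 with CBLB502, 13.6, 9.56 and 4.38 with cisplatin and 2.5, 2.98 and 4.09 with the combination. CBLB502 was its high group and the combination its low group, with no overlap, and the interaction was -3.33 ± 0.56 (adjusted p = 0.002).

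Msr1, another scavenger receptor, had 8.99, 5.04 and 6.3 CPM in control, 12.6, 12.02 and 8.26 with CBLB502, 4.99, 2.78 and 5.04 with cisplatin and 0.875, 0.778 and 0.272 with the combination, and the interaction was -3.42 ± 0.64 (adjusted p = 0.0034). Mrc1, the mannose receptor, had 9.39, 9.61 and 10.8 CPM in control, 34.4, 22.2 and 14.7 with CBLB502, 8.07, 5.34 and 9.66 with cisplatin and 1.09, 1.26 and 3.23 with the combination, with an interaction of -3.31 ± 0.62 (adjusted p = 0.0036). The combination was below all other groups with no overlap for both. Endothelial markers had a median of -2.70, but 2 of 20 were called, both below additivity, where 14.6% of all genes were below. The count was 5 without cisplatin library 1 and 0 without CBLB502 library 1, CBLB502 library 2 or combination library 1. Fcgr2b, the Fc receptor of sinusoidal endothelium, had 17, 12.9 and 19.5 CPM in control, 41.1, 32.1 and 17.4 with CBLB502, 1.94, 2.5 and 7.48 with cisplatin and 1.36, 1.45 and 1.26 with the combination, with an interaction of -2.43 ± 0.67 (adjusted p = 0.023), and its call was lost in 5 of 12 single omissions. Gpr182 had an interaction of -3.24 ± 0.95 (adjusted p = 0.031), lost in 8 of 12.

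Neutrophil markers were few and low. Their sum was 23.6 to 36 CPM in control, 5.68 to 8.6 with CBLB502, 62.7 and 85.5 in cisplatin libraries 1 and 2 but 5.1 in library 3, and 1.02 to 2.87 with the combination. Of 10 tested, 1 was below additivity (14.6% of all genes were), and 5 without cisplatin library 3. S100a8, a calprotectin subunit, had 3.8, 1.57 and 5.49 CPM in control, 0.968, 0.288 and 0.389 with CBLB502, 22.4, 22.5 and 0.718 with cisplatin and 0.0649, 0.173 and 0 with the combination, with the combination below every other library, and an interaction of -4.83 ± 1.62 (adjusted p = 0.055). S100a9 had an interaction of -4.11 ± 1.44 (adjusted p = 0.064). These were -5.42 (adjusted p = 0.0034) and -4.65 (adjusted p = 0.0088) without cisplatin library 3.

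Of 20 stellate, smooth muscle and fibroblast markers, 6 were above additivity and 3 below, where 6.57% and 14.6% of all genes were. The count below is close to the share of all genes. Lrat, which stores retinol as esters in quiescent stellate cells, had 5.2, 3.94 and 4.07 CPM in control, 10.2, 10.2 and 9.37 with CBLB502, 1.34, 2 and 2.59 with cisplatin and 0.519, 0.381 and 0.747 with the combination. The 4 groups did not overlap, with CBLB502 highest and the combination lowest, and the interaction was -3.02 ± 0.53 (adjusted p = 0.0024). Acta2, the smooth muscle actin of activated stellate cells and vessel walls, had 105, 4.72 and 15.0 CPM in control, 4.06, 1.89 and 1.75 with CBLB502, 0.66, 0.28 and 0.07 with cisplatin and 2.4, 2.47 and 2.34 with the combination. Control was high with wide spread, cisplatin was lowest, the combination was at the CBLB502 level, and the interaction was 6.87 ± 1.41 (adjusted p = 0.0055) and 4.78 without control library 1. Col6a1 had 42.4, 22.5 and 7.32 CPM in control, 8.08, 8.47 and 6.27 with CBLB502, 0.968, 1.14 and 1.05 with cisplatin and 1.88, 1.75 and 2.11 with the combination, with an interaction of 2.52 ± 0.66 (adjusted p = 0.019), lost without CBLB502 library 3 (adjusted p = 0.053). The count above additivity fell to between 1 and 3 without any 1 CBLB502 library, cisplatin library 2 or combination library 3. Control library 1 held 1075 CPM of these markers against 369 and 230 in the others, and 1035 CPM of white fat markers against 48.5 and 53.9. Its part in the result was not tested.

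Markers of lymphocytes and platelets were highest in control. Above additivity were 2 of 21 for T and NK cells, 1 of 19 for B and plasma cells and 1 of 6 for platelets, against 6.57% of all genes, and none was below. The summed B and plasma cell level was 438 to 622 CPM in control, 125 to 292 with CBLB502, 4.86 to 49.8 with cisplatin and 9.62 to 14.1 with the combination. Without cisplatin library 3, 5 of its members were above additivity. Ighg2c, an immunoglobulin heavy chain constant gene whose reads can be shared with related genes, had 24.8, 36.1 and 36.2 CPM in control, 3.24, 1.75 and 2.59 with CBLB502, 0, 0 and 0 with cisplatin and 0.13, 0 and 0.102 with the combination. It had no count with cisplatin, and against 3 counts over that group it was at least 49.1-fold above additivity. Itga2b, the platelet integrin, had 14.4, 15.3 and 18.5 CPM in control, 2.81, 3.21 and 3.27 with CBLB502, 2.02, 2.11 and 2.52 with cisplatin and 1.86, 3.11 and 2 with the combination, below control in every treated library, and an interaction of 2.44 ± 0.41 (adjusted p = 0.0021).

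**Figure D4:**
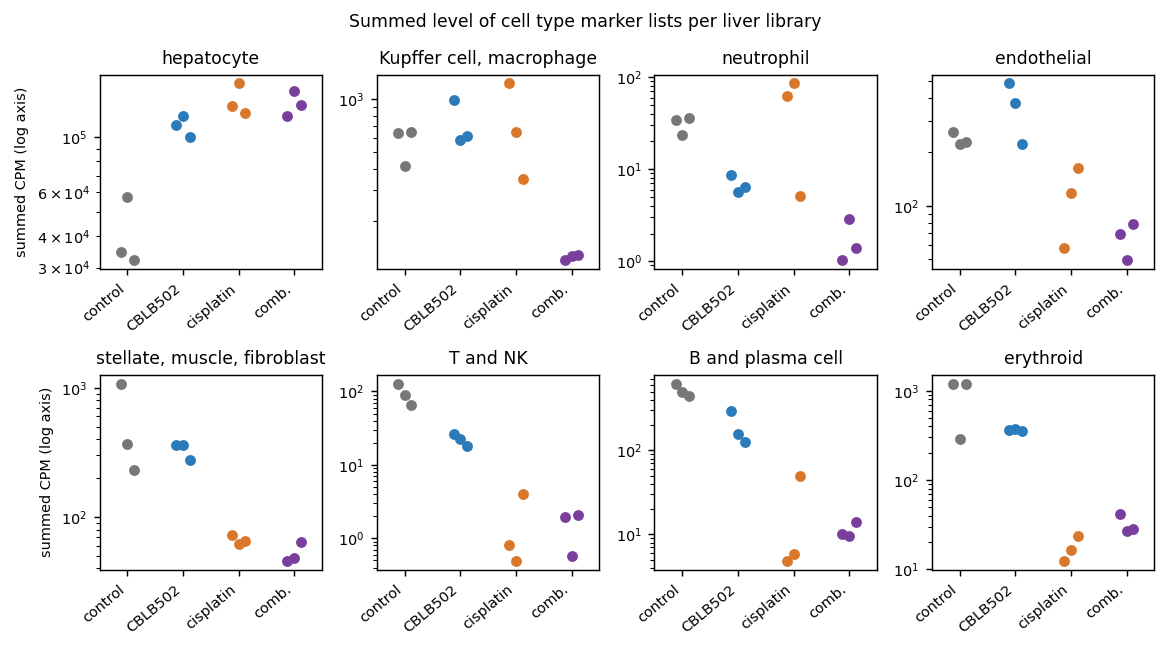
Summed level (CPM, log axis) of 8 cell type marker lists in each of the 3 libraries (points) of the 4 liver groups. Macrophage markers lie at 119 to 128 CPM in the combination and above 340 CPM in every other library, and lymphocyte and erythroid markers are low in both groups that received cisplatin. Cd14 alone makes up 967 and 380 CPM of the macrophage sums in cisplatin libraries 1 and 2.

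The same contrast in kidney had 1643 of 21222 genes called, or 7.74%, with 1197 below (5.64%) and 446 above additivity (2.1%). The difference between the tissues, fitted over all 24 libraries, was called for 1403 of 22723 genes (6.17%), of which 760 were lower in liver (3.34%) and 643 higher (2.83%). Kidney controls shared the mitochondrial excess of liver controls, at 60.7% to 69% of counts. For Scd1 the liver interaction minus that of kidney was -8.10 (adjusted p = 0.0078), and for Rps3 it was -2.36 (adjusted p = 0.0047). For Nr1d1 and Acta2 the difference between tissues did not pass the test, at adjusted p of 0.13 and 0.11.

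**Figure D5:**
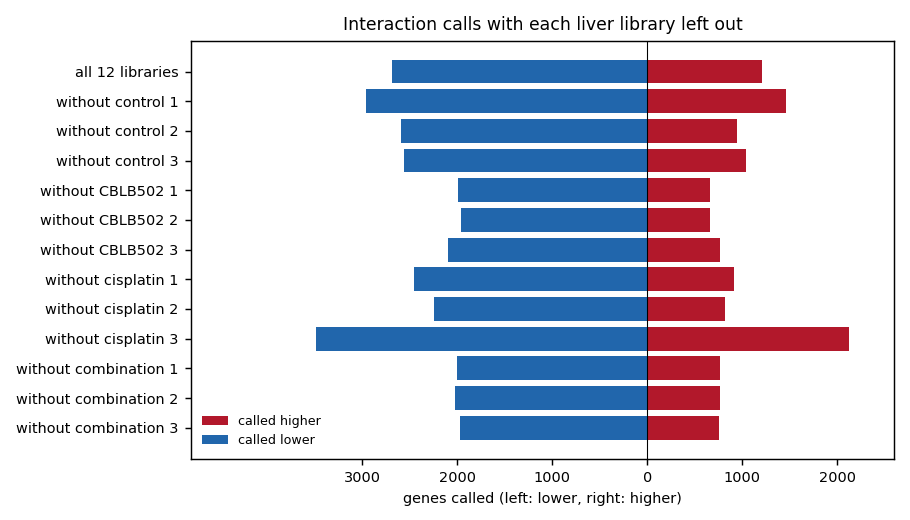
Number of genes called below additivity (left of 0) and above it (right of 0) with all 12 liver libraries and with each library left out. Counts below ran from 1959 to 3483 and above from 659 to 2122, with the highest of both without cisplatin library 3.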

How the data were processed

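The authors deposited raw read counts and FPKM per gene and library, per the file headers, and the counts of the 24 libraries were used. FPKM as deposited were not used. Cutadapt 1.9 and FastQC are listed in the submitters' processing notes. For aligner, counter, strand, build and annotation, the entry is not given in the sources used here. In all, 99.65% of the gene IDs were in GENCODE vM21 (GRCm38). Without strand, reads of overlapping genes cannot be told apart: 19 of the 79 genes described share exon bases with another gene, 7 of them over more than 10% (Bdh1, Dbp, Rpl5, Cox5a, Ddb2, Mt2 and Apoa4).

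Genes of chromosome MT (37) and 7 copies on chromosome 1 were left out, since controls hold most of their counts there. Counts were tested with edgeR 4.0.16 in R 4.3.3 (filterByExpr, TMM scaling, quasi-likelihood test, Benjamini-Hochberg threshold 0.05), with the 4 liver groups in one fit. The fit was also run on simulated counts, which hold no outlying library such as cisplatin library 3 and so cannot speak to its effect. Values are log2 ± SE, where SE is the absolute log2 value divided by the square root of the F statistic of the test. For genes near 0 counts this SE is unreliable. Liver totals ran from 40.58 to 77.54 M counts. Floors are 3 counts over a group and cover counting error only. Members and the 40 gene lists (794 tested genes) were chosen with earlier results of these data known. Genes were named by rule: the 12 largest called changes each way with at least 5 CPM in the highest group, a symbol on 1 ID and no predicted model, up to 3 called members of each list, and a fixed set of genes, whatever their result. Some that it names are not reported here. Alternatives used DESeq2 1.42.0, limma 3.58.1, other scalings, filters and omissions.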

Additional observations from a re-analysis of the deposited data

Results flagged for a closer look

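For 20 of the genes described, the interaction in liver differed from the same contrast in kidney (edgeR quasi-likelihood test over all 24 libraries, adjusted p under 0.05, against 6.17% of genes tested). Many of the genes described were named because their liver interaction was called, and the difference contains that same liver value. The 20 are therefore not comparable with the share of all genes and are given as description. Every value here is liver minus kidney on the log2 scale, and the liver and kidney controls both held most counts in mitochondrial genes.

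Among lipid genes the difference was -8.10 for Scd1, -2.44 for Elovl5, -2.21 for Fads1, -2.94 for Bdh1 and -1.31 for Ebp. Scd1 was below additivity in liver (-6.58) and had a kidney value of 1.59. Among acute-phase and cytokine genes it was -7.17 for Steap4, 5.71 for Crp, -9.99 for Lepr and 2.17 for Stat2. Crp had the lower value in kidney, at -7.84.

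Among the ribosomal and respiratory chain genes described, the difference was -2.36 for Rps3, -1.52 for Rpl5, -1.66 for Cox4i1, -1.22 for Cox5a and -2.01 for Ndufa4. It was 2.65 for Ddb2, -1.63 for Gss, 8.24 for Arg1 and -10.58 for Zc3h12c. The last of these had no count in liver controls, so that its value depends on the prior count. Among cell type markers it was -4.28 for Mrc1 and -4.01 for Lrat.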

How the results depend on the processing

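Of the 79 genes described, 58 passed the test, 50 of them passed with each of the 12 liver libraries left out, and 46 passed under every setting tried. Genes above additivity numbered 1207, and 2297 with DESeq2 (1691 genes without an adjusted p) and 2537 with limma-voom and sample quality weights. With single liver libraries left out they ran from 659 (without CBLB502 library 2) to 2122 (without cisplatin library 3), and genes below additivity from 1959 to 3483 without the same libraries. Of the differences from kidney, 270 to 1066 were higher in liver and 417 to 1605 lower with single libraries left out, and the highest of both were without cisplatin library 3. Genes called under 2 settings had the same sign in each comparison with the main setting.

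With the replicate number as a block, 1050 genes were above additivity and 2402 below. Numbers did not pair the libraries: correlations between same-numbered libraries ran from -0.17 to 0.17, and 3 of 12 libraries were closest to their own number.

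The sign changed for 4 genes, of which none passed the test with all libraries. Ciart was 0.0796 with median-of-ratios scaling, 0.079 with DESeq2, 0.0824 with limma-voom, 0.21 with a mean of at least 5 CPM, 0.017 with the replicate block, 0.094 without CBLB502 library 2 and 0.17 without cisplatin library 2, with a range of -0.53 to 0.17 over single omissions. Tlr5 was 0.18 with quality weights, 0.13 without control library 1 and 0.83 without cisplatin library 3, the highest of a range from -2.08. Gdf15 was -0.23 without control library 2 and up to 2.48 without others. Cyp7a1 was 0.59 with limma-voom, 2.21 with quality weights and 3.91 without cisplatin library 3, the highest of a range from -2.21. The cause was not tested. Control depth limits genes with few counts, which were not detectable at 3 counts over the group.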

Other observations

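For the lists in this section, the shares over all genes are 6.57% above additivity and 14.6% below with all 12 libraries. Without cisplatin library 3, 2122 genes were above and 3483 below, of 19221 tested. List counts without that library therefore stand against higher shares. In the fasting and glucocorticoid list 1 of 27 genes was above additivity and 3 were below, and 3 and 5 without cisplatin library 3. Pck1, the rate-limiting enzyme of gluconeogenesis, had 2911, 2757 and 4905 CPM in control, 2170, 1350 and 2471 with CBLB502, 2656, 3253 and 3965 with cisplatin and 5302, 5573 and 5569 with the combination, so that the combination libraries were higher than every other library. Its interaction was 1.56 ± 0.45 (adjusted p = 0.031), held in 4 of 12 fits that left out a library. Igfbp1, which binds insulin-like growth factors, had 25.6, 60.1 and 100.4 CPM in control, 4.62, 5.73 and 6.64 with CBLB502, 7258, 5722 and 182 with cisplatin and 429.8, 884 and 554 with the combination, high in cisplatin libraries 1 and 2, and an interaction of 0.64 ± 1.24 (adjusted p = 0.76).

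Of 22 immediate-early genes, 3 were above additivity and 2 below, with a median of 0.43. Over single omissions the count above ran from 0 to 3, the count below from 0 to 6 (6 without cisplatin library 3) and the median from -0.10 to 0.98. The growth hormone list had 3 above and 3 below of 22, and 6 and 5 without cisplatin library 3. Of 26 phase II conjugation enzymes, 7 were below and 1 above, and 7 and 4 without cisplatin library 3. Of 29 cell cycle genes, 1 was above and 1 below, with 0 to 2 above and 1 to 3 below over single omissions. Of 24 iron and haem genes 4 were below, and 9 were below and 3 above without cisplatin library 3.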
